A study of Danio rerio with 12 samples.

Results

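The genes described here encode the subunits of the constitutive proteasome, together with the base assembly chaperones that share its gene names. Members were the genes whose symbol starts with psma, psmb, psmc or psmd followed by a digit, without the immunoproteasome and thymus-type beta subunits psmb8 to psmb13, at a mean of at least 1 CPM (counts divided by the library total and scaled to a common size) over the 12 libraries. This rule gave 42 genes of 32105 in the table, and none was lost to the CPM limit. All 42 passed the filter on low counts, which left 18370 genes for testing. By role they were 10 alpha ring genes, 7 beta ring genes, 7 ATPase genes, 5 non-ATPase genes of the base, 9 lid genes, 3 chaperones and psmc3ip. The last of these encodes a meiotic recombination factor that is no proteasome subunit and was taken in by its symbol alone.

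Bulk poly(A) RNA was sequenced from the dissected kidney of single zebrafish, whose age and sex the labels do not give, in 4 genotype groups of 3 animals. The zebrafish kidney holds the blood-forming marrow as well as the kidney tubules, so each library mixes blood cells, immune cells and renal cells. The groups were mutants of both il2rga and prkdc (called double mutants below), il2rga mutants, prkdc mutants and wild type. il2rga encodes the common gamma chain shared by several interleukin receptors, and prkdc encodes the DNA-dependent protein kinase that joins DNA ends during antigen receptor assembly. The study's design text gives the alleles as il2rga(Y91fs) and prkdc(D3612fs) for its single-cell animals, and the labels of these libraries give the genotype only. No strain is labelled for these libraries.

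The proteasome is the main protease of the cytosol and nucleus and degrades proteins that carry ubiquitin chains. Its core particle is a barrel of stacked rings, with outer alpha rings that gate the entry and inner beta rings that hold the protein-cutting sites. The regulatory particle caps the barrel: its lid and base bind the substrate and remove ubiquitin, and its ATPase ring unfolds the protein and feeds it into the core. Cells tend to make these subunits in step, and blood-forming and immune cells use the proteasome both for turnover and for making the peptides shown on MHC class I.

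Total counts were 4756244 to 10311377 per library, and the members took 17479 to 37883 of them. il2rga had 1.71 to 6.17 CPM in the 6 libraries with its mutation and 34.1 to 61.4 CPM in the other 6. prkdc had 16.0 to 23.3 CPM in double and prkdc mutants, 22.1 to 34.2 CPM in il2rga mutants and 50.1 to 62.8 CPM in wild type. Markers of proximal tubule, erythroid cells and neutrophils were present in every library, with a mean log2 CPM of at least 7.53 over the tubule list, 7.23 over the erythroid list and 8.32 over the neutrophil list. Levels below are CPM after TMM scaling and are not divided by gene length, so they are compared between libraries and never between genes. The libraries come from bulk tissue, in which more cells of a type and more RNA per cell cannot be told apart.

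Proteasome genes were higher in the mutants that lack il2rga, with or without the prkdc mutation. The 42 members summed to 4251, 3789 and 5201 CPM in double mutants 1 to 3 and to 3672, 3856 and 5127 CPM in il2rga mutants 1 to 3. They summed to 3537, 3519 and 3157 CPM in prkdc mutants 1 to 3 and to 2921, 3504 and 2965 CPM in wild type 1 to 3. Every library with the il2rga mutation therefore lay above every library without it, although il2rga mutant 1 exceeded prkdc mutant 1 only slightly. The group means were 4414 ± 720 CPM in double mutants, 4218 ± 792 CPM in il2rga mutants, 3404 ± 214 CPM in prkdc mutants and 3130 ± 324 CPM in wild type (SD, n = 3 each). As a share of all counts the means were 0.428% in double mutants, 0.415% in il2rga mutants, 0.348% in prkdc mutants and 0.316% in wild type.

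Double mutant 3 and il2rga mutant 3 stood above the other libraries. Double mutant 3 was the highest of the 12 libraries for 23 members and il2rga mutant 3 for 13. Of the others, double mutant 1 was highest for 3 members, il2rga mutant 1 for 2 and prkdc mutant 2 for psmd6 alone. The members had a median coefficient of variation over the 12 libraries of 24.3%, against 30.9% for the 11140 tested genes within the same range of mean CPM. That range starts at the mean of psmc3ip, far below most subunits. The genes compared were not matched to the members by level within it.

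**Figure D1:**
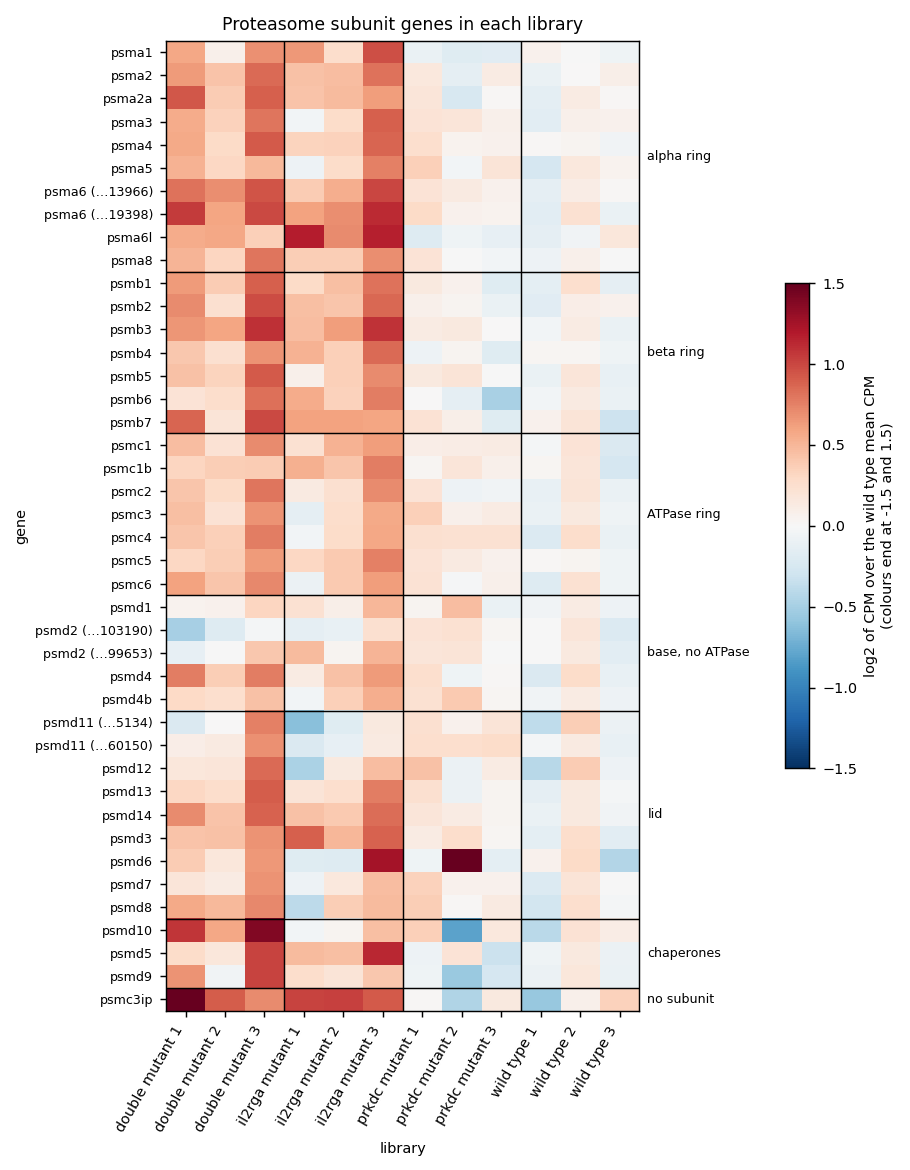
Each row is a member gene and each column a library, and the colour is the log2 ratio of its CPM to the wild type mean, with colours ending at -1.5 and 1.5. Genes that share a symbol are told apart by the end of their Ensembl identifier. The 6 columns with the il2rga mutation are mostly red, most strongly in double mutant 3 and il2rga mutant 3, while the prkdc mutant and wild type columns are mostly near white, apart from psmd6 in prkdc mutant 2.

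For 19 of the 42 members (45.2%) all 6 libraries with the il2rga mutation lay above all 6 without it, and for none did they lie below. Among all 18370 tested genes the same held for 4.65% above and 6.74% below. By role these were 8 of 10 alpha ring genes, 5 of 7 beta ring genes, 3 of 7 ATPase genes, 2 of 9 lid genes and psmc3ip, with none of the 5 other base genes and none of the 3 chaperones.

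In double and il2rga mutants the fold changes were larger for core particle genes than for regulatory particle genes, and in prkdc mutants they were not. Over the 17 core genes the median log2 fold change against wild type was 0.62 in double mutants, 0.58 in il2rga mutants and 0.05 in prkdc mutants. Over the 21 regulatory genes it was 0.44 in double mutants, 0.34 in il2rga mutants and 0.15 in prkdc mutants. Summed core CPM divided by summed regulatory CPM was 0.899, 0.780 and 0.834 in double mutants 1 to 3 and 0.886, 0.831 and 0.846 in il2rga mutants 1 to 3. The same ratio was 0.693, 0.608 and 0.675 in prkdc mutants 1 to 3 and 0.746, 0.680 and 0.763 in wild type 1 to 3. All 6 ratios with the il2rga mutation were above the 6 without it, and so they were without psmd6, at 0.823 to 0.954 with the mutation and 0.698 to 0.797 without it. The ratio has no test of its own, because it was computed over genes chosen with earlier results in view. The part of transcript length in it was not tested.

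**Figure D2:**
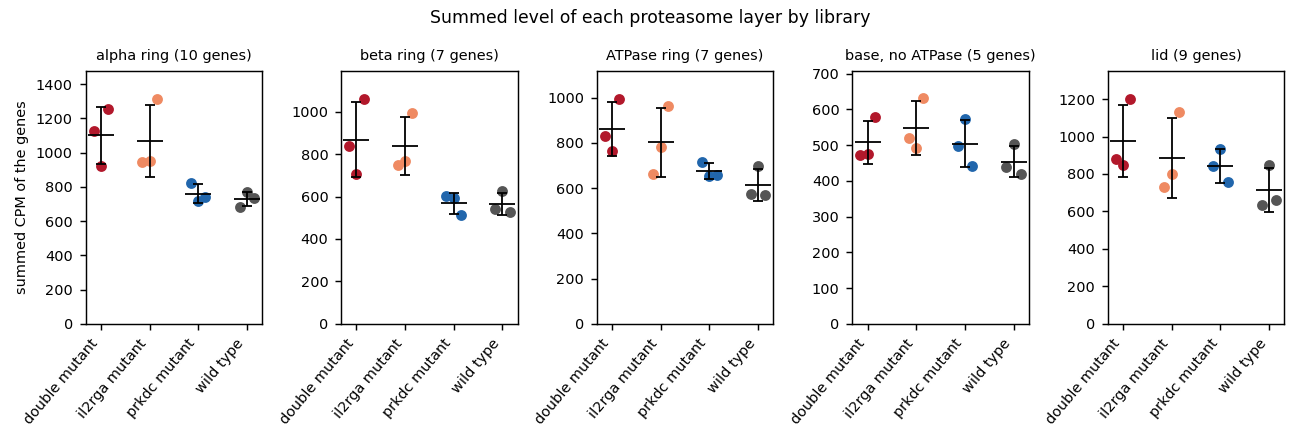
Summed CPM of the genes of each proteasome layer, 1 point per library, with the group mean and SD (n = 3 each). In the alpha and beta ring panels every double and il2rga mutant lies above every prkdc mutant and wild type. In the ATPase panel every double mutant does so too, while il2rga mutant 1 lies below prkdc mutant 1 and wild type 2. In the lid panel the double mutants lie above wild type, narrowly, and overlap the prkdc mutants. In the base panel all groups overlap.

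Against wild type, double mutants had the larger number of called members. Of the 42 members, 7 rose (16.7%) and none fell at an adjusted p under 0.05 (edgeR's quasi-likelihood test, Benjamini-Hochberg over all genes tested), where 6.8% of all tested genes rose and 7.51% fell. These were psma2, psma2a, both genes with the symbol psma6, psmb3, psmd14 and psmc3ip. Over the members the log2 fold changes had a median of 0.53, with 41 of 42 positive, against a median of 0.05 over all tested genes. The groups did not overlap for 32 members (76.2%), all higher in double mutants, where 16.7% of all genes were higher and 17.8% lower without overlap. The count of 7 became 0 without double mutant 1, wild type 1 or wild type 3, 2 without wild type 2, 3 without double mutant 3 or prkdc mutant 3, 4 without prkdc mutant 1 and 15 without double mutant 2. DESeq2 called 17, and a liver covariate left 0. Counts from such alternative fits, here and below, are given without the share of all tested genes called in the same fit. They therefore do not show whether the members differed from other genes there.

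In il2rga mutants against wild type, 3 of 42 members rose (7.14%) and none fell, where 2.22% of all tested genes rose and 3.59% fell. They were psma6l, psma6 (ENSDARG00000019398) and psmd3. The median was 0.46 over the members and 0.06 over all tested genes on the log2 scale, and 40 of 42 members were positive. The groups did not overlap for 23 members (54.8%), all higher in il2rga mutants, where 14.6% of all genes were higher and 16% lower. The count of 3 became 0 without wild type 1 or wild type 2, and 1 without any single il2rga mutant, wild type 3, prkdc mutant 1 or prkdc mutant 3. DESeq2 and voom called 11 each, the fit with the replicate number as a block called 1, and a liver covariate left 0.

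In prkdc mutants against wild type no member was called, and 0% of all tested genes were higher or lower past the threshold. No member had an unadjusted p under 0.05, against 1052 of all tested genes, and DESeq2 and voom called no member either. Over the members the median log2 fold change was 0.11, with 33 of 42 positive, against 0.00 over all tested genes. The groups did not overlap for psma4, psmc5 and psmd11 (ENSDARG00000060150), which were higher in prkdc mutants, and for psma1, which was lower, while 6.27% of all genes were higher and 7.61% lower without overlap. The smallest p was that of psmd11 (ENSDARG00000060150), at a log2 fold change of 0.26 ± 0.19 (SE) and an adjusted p of 1.

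Double mutants set against prkdc mutants differ in il2rga on a prkdc mutant background. Here 9 of 42 members rose (21.4%) and none fell, where 7.93% of all tested genes rose and 6.86% fell. They were psma2, psma2a, psma6l, both psma6 genes, psmb3, the chaperones psmd9 and psmd10, and psmc3ip. Members had a median log2 fold change of 0.49, and all tested genes one of 0.03. The groups did not overlap for 29 members (69.0%) that were higher in double mutants and for 1, a psmd2 gene, that was lower, where 16% of all genes were higher and 17.2% lower. The count of 9 became 0 without double mutant 1, prkdc mutant 2 or prkdc mutant 3, 1 without prkdc mutant 1, 2 without double mutant 3 or wild type 3, 3 without wild type 2, 4 without wild type 1 and 5 without il2rga mutant 2. DESeq2 called 17, the replicate block left 1, and a liver covariate left 0.

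In il2rga mutants against prkdc mutants, 3 of 42 members rose (7.14%) and none fell, where 3.1% of all tested genes rose and 3.67% fell. They were psma1, psma6l and psmb4. Members had a median of 0.36 on the log2 scale, against 0.03 for all tested genes. The groups did not overlap for 22 members (52.4%) that were higher in il2rga mutants and for psmd11 (ENSDARG00000060150), which was lower, where 15.4% of all genes were higher and 15.3% lower. The count of 3 became 1 without double mutant 1, il2rga mutant 1, il2rga mutant 3, any single prkdc mutant or any single wild type. DESeq2 called 9 and voom 16, while the replicate block left 1 and a liver covariate left 0.

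Double mutants against il2rga mutants ask what the prkdc mutation adds. No member was called, nor was any gene in the table (0%), and 2 members, psma6l and psmd10, had an unadjusted p under 0.05 against 1767 of all tested genes. DESeq2 and voom called no member here. Deviations of same-numbered libraries of these groups correlated at 0.13, 0.12 and 0.52 for replicates 1 to 3. Double mutant 1 correlated with il2rga mutant 2 at 0.42 and double mutant 2 with il2rga mutant 1 at 0.21. The remaining differently numbered pairs ran from -0.43 to -0.24. Deviations within a group sum to 0, so these correlations depend on each other and do not settle whether the number marks a pairing. With the replicate number as a block no member was called either, which cannot settle it where none was called without the block. On the log2 scale the median was 0.09 over the members and 0.00 over all genes. Without overlap, psmd8 and psmd10 were higher in double mutants and psma6l and psmc1b were lower, where 5.6% of all genes were higher and 5.85% lower. The interaction, the double against il2rga difference less the prkdc against wild type difference, likewise called no member of 42 and no gene in the table (0%). Its median over the members was 0.01, no member had an unadjusted p under 0.05, and DESeq2 and voom called none. The smallest p in the interaction was that of psmd10, with an estimate of 0.90 ± 0.46 (SE) and an adjusted p of 0.788. These comparisons share groups with those above, so they are not separate evidence.

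**Figure D3:**
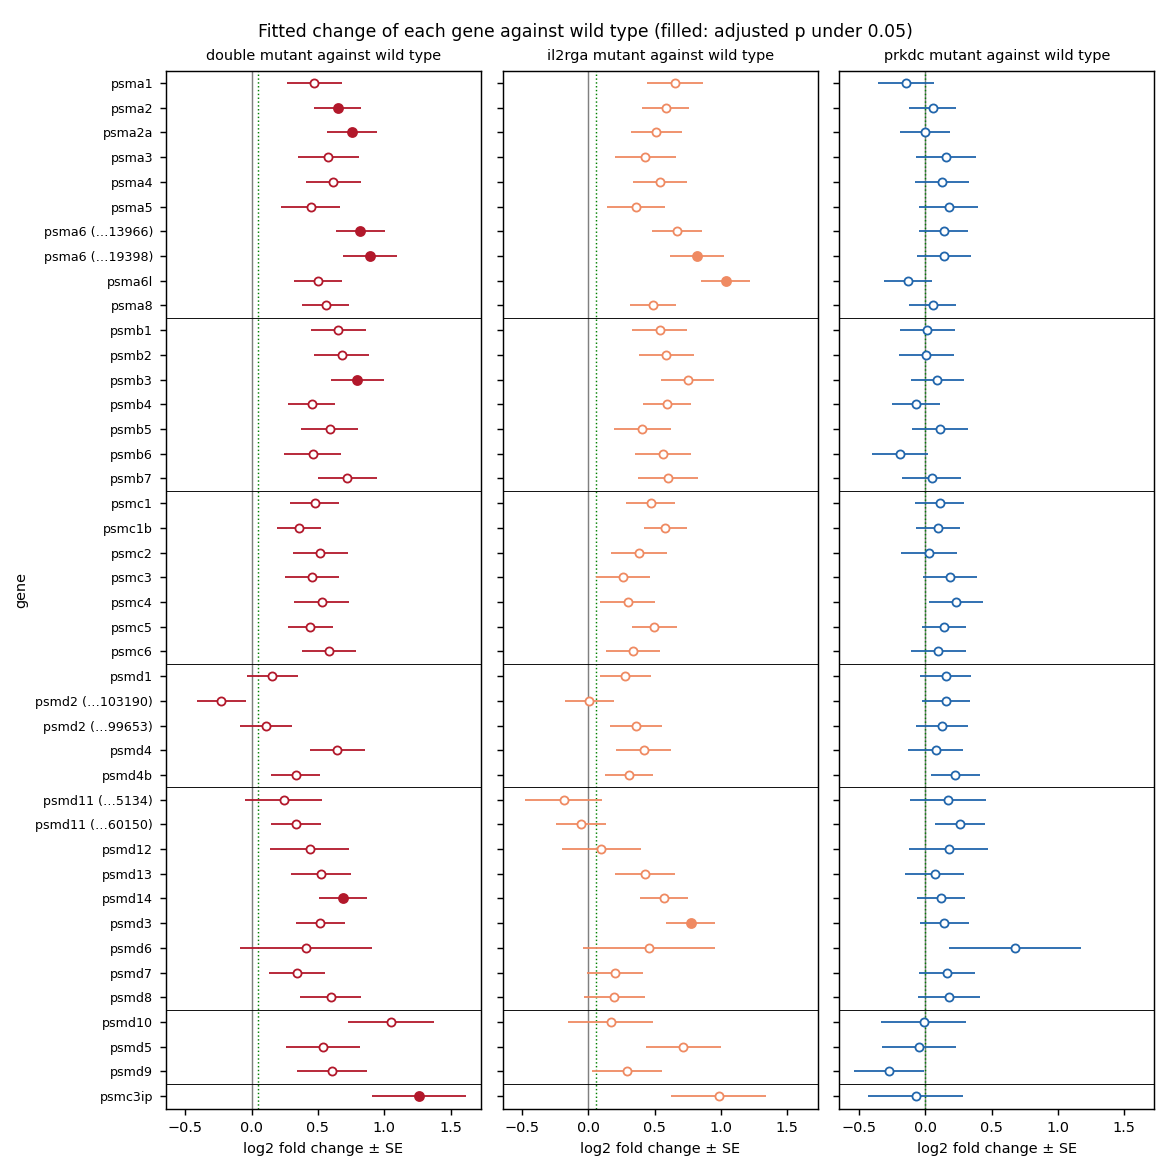
Fitted log2 fold change of each member against wild type with its standard error, for double, il2rga and prkdc mutants. Filled points have an adjusted p under 0.05, the grey line is 0 and the green dotted line is the median of all tested genes. Nearly all points of the double and il2rga mutants lie right of both lines, with 7 and 3 filled, while those of the prkdc mutants gather near 0 with none filled.

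In each comparison that called any member, the alpha ring held more of the called members than any other layer. It is also the largest layer, so these counts do not show a concentration there. In double against prkdc mutants 5 of its 10 genes were called, and 2 of the 3 chaperones. Against wild type it held 4 of 7 in double mutants and 2 of 3 in il2rga mutants. Against prkdc mutants it held 5 of 9 in double mutants and 2 of 3 in il2rga mutants. Counted once per gene over all comparisons, the alpha ring did not hold the majority. Its 10 genes had a median log2 fold change against wild type of 0.60 in double mutants, 0.56 in il2rga mutants and 0.09 in prkdc mutants. The beta ring medians were slightly larger in double mutants, at 0.65, and in il2rga mutants, at 0.59. Genes that carry the psma6 symbol or a form of it, for the subunit also known as alpha 1, had the largest fold change of the alpha ring in both double and il2rga mutants.

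psma6 (ENSDARG00000013966) had 56.3, 51.7 and 61.4 CPM in double mutants 1 to 3, 41.8, 46.6 and 64.2 CPM in il2rga mutants 1 to 3, 37.0, 35.2 and 33.3 CPM in prkdc mutants 1 to 3, and 29.1, 34.5 and 32.4 CPM in wild type 1 to 3. All libraries with the il2rga mutation lay above the rest. Its log2 fold change was 0.82 ± 0.19 (SE) in double mutants against wild type (adjusted p = 0.0205) and 0.68 ± 0.19 against prkdc mutants (adjusted p = 0.0352).

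psma6 (ENSDARG00000019398) had 72.6, 52.9 and 70.0 CPM in double mutants 1 to 3, 53.2, 57.0 and 76.2 CPM in il2rga mutants 1 to 3, 42.9, 36.9 and 36.5 CPM in prkdc mutants 1 to 3, and 31.4, 41.3 and 32.7 CPM in wild type 1 to 3. The 6 libraries with the il2rga mutation again lay above the others. It rose by 0.89 ± 0.20 (log2 ± SE) in double mutants against wild type (adjusted p = 0.0211) and by 0.82 ± 0.20 in il2rga mutants against wild type (adjusted p = 0.0398).

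psma6l, a further gene of this type that the reference table also lists as psma6b, followed a different order. It had 31.8, 32.4 and 27.8 CPM in double mutants 1 to 3, 49.2, 35.5 and 48.5 CPM in il2rga mutants 1 to 3, 18.9, 20.6 and 19.9 CPM in prkdc mutants 1 to 3, and 19.7, 21.0 and 24.3 CPM in wild type 1 to 3. The il2rga mutants were the highest, the double mutants stood between, and prkdc mutants overlapped wild type. Its log2 fold change was 1.03 ± 0.18 (SE) in il2rga mutants against wild type (adjusted p = 0.013), 1.16 ± 0.18 in il2rga mutants against prkdc mutants (adjusted p = 0.00937) and 0.63 ± 0.18 in double mutants against prkdc mutants (adjusted p = 0.0425). With 1 library left out, the adjusted p in il2rga mutants against prkdc mutants ran between 0.0103 and 0.0499, and against wild type between 0.0134 and 0.0545. Every other called change of a member also went above 0.05 when some library was left out. The lower level in double than in il2rga mutants, at -0.53 ± 0.18, did not pass the adjustment (adjusted p = 0.506).

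psma2 had 75.01, 64.5 and 86.8 CPM in double mutants 1 to 3, 65.3, 66.5 and 84.5 CPM in il2rga mutants 1 to 3, 53.6, 44.0 and 52.3 CPM in prkdc mutants 1 to 3, and 44.9, 48.1 and 51.2 CPM in wild type 1 to 3. psma2a, the second gene for this subunit, had 114, 77.6 and 111 CPM in double mutants 1 to 3, 80.5, 82.7 and 92.1 CPM in il2rga mutants 1 to 3, 67.6, 50.5 and 60.2 CPM in prkdc mutants 1 to 3, and 54.0, 64.8 and 60.2 CPM in wild type 1 to 3. For both genes the libraries with the il2rga mutation lay above the others without overlap. In double mutants against wild type psma2 rose by 0.65 ± 0.18 (log2 ± SE, adjusted p = 0.0352) and psma2a by 0.76 ± 0.19 (adjusted p = 0.0281).

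psma1 had 174, 122 and 187 CPM in double mutants 1 to 3, 182, 140 and 226 CPM in il2rga mutants 1 to 3, 109, 103 and 103 CPM in prkdc mutants 1 to 3, and 121, 116 and 111 CPM in wild type 1 to 3. Double mutant 2 was barely above wild type 1. It rose by 0.80 ± 0.21 (log2 ± SE) in il2rga mutants against prkdc mutants (adjusted p = 0.0466). psma3, psma4, psma5 and psma8, which the reference table also lists as psma7, were not called in any comparison, and their group means in double mutants were 158, 126, 115 and 211 CPM against 106, 82.4, 84.7 and 144 CPM in wild type.

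The beta ring holds the cutting sites. Its 7 genes had a median log2 fold change against wild type of 0.65 in double mutants, 0.59 in il2rga mutants and 0.02 in prkdc mutants. None of the catalytic subunits passed the adjustment in any comparison, although their levels mostly followed those of the rest of the ring.

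psmb5, the chymotrypsin-like subunit and the main target of bortezomib, had 142, 132 and 198 CPM in double mutants 1 to 3, 110, 134 and 171 CPM in il2rga mutants 1 to 3, 115, 119 and 104 CPM in prkdc mutants 1 to 3, and 97.8, 119 and 96.7 CPM in wild type 1 to 3. The double mutants lay above wild type without overlap, whereas il2rga mutant 1 lay below wild type 2. Its log2 fold change was 0.59 ± 0.21 (SE) in double mutants (adjusted p = 0.0842) and 0.41 ± 0.21 in il2rga mutants (adjusted p = 0.275), each against wild type.

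psmb6, the caspase-like subunit, had 68.2, 71.2 and 105 CPM in double mutants 1 to 3, 86.8, 74.9 and 101 CPM in il2rga mutants 1 to 3, 59.3, 53.8 and 42.3 CPM in prkdc mutants 1 to 3, and 57.4, 64.8 and 55.1 CPM in wild type 1 to 3. All 6 libraries with the il2rga mutation were above the other 6. The change against wild type was 0.46 ± 0.21 in double mutants (log2 ± SE, adjusted p = 0.159) and 0.56 ± 0.21 in il2rga mutants (adjusted p = 0.136).

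psmb7, the trypsin-like subunit, had 120, 74.8 and 130 CPM in double mutants 1 to 3, 99.4, 99.9 and 98.7 CPM in il2rga mutants 1 to 3, 76.2, 69.4 and 57.8 CPM in prkdc mutants 1 to 3, and 68.6, 75.03 and 52.9 CPM in wild type 1 to 3. The il2rga mutants were nearly equal and above wild type, while double mutant 2 fell within the wild type range. Its log2 fold change against wild type was 0.72 ± 0.22 (SE) in double mutants (adjusted p = 0.0523) and 0.60 ± 0.22 in il2rga mutants (adjusted p = 0.132).

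Among the structural beta subunits psmb3 was called. It had 107, 102 and 144 CPM in double mutants 1 to 3, 93.1, 104 and 144 CPM in il2rga mutants 1 to 3, 73.8, 74.7 and 67.9 CPM in prkdc mutants 1 to 3, and 66.0, 74.1 and 63.2 CPM in wild type 1 to 3. The groups with and without the il2rga mutation did not overlap. psmb3 rose by 0.80 ± 0.20 (log2 ± SE) in double mutants against wild type (adjusted p = 0.0287) and by 0.71 ± 0.20 against prkdc mutants (adjusted p = 0.0411).

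psmb4 had 131, 117 and 158 CPM in double mutants 1 to 3, 142, 126 and 179 CPM in il2rga mutants 1 to 3, 93.6, 102 and 87.4 CPM in prkdc mutants 1 to 3, and 101, 101 and 94.5 CPM in wild type 1 to 3. These too separated by the il2rga mutation. psmb4 was just past the threshold in il2rga mutants against prkdc mutants, at 0.66 ± 0.18 (log2 ± SE, adjusted p = 0.050, under the threshold before rounding), and only 3 of its 23 alternative analyses kept it there. psmb1 and psmb2 were not called, with means of 145 and 122 CPM in double mutants against 92.4 and 76.2 CPM in wild type.

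**Figure D4:**
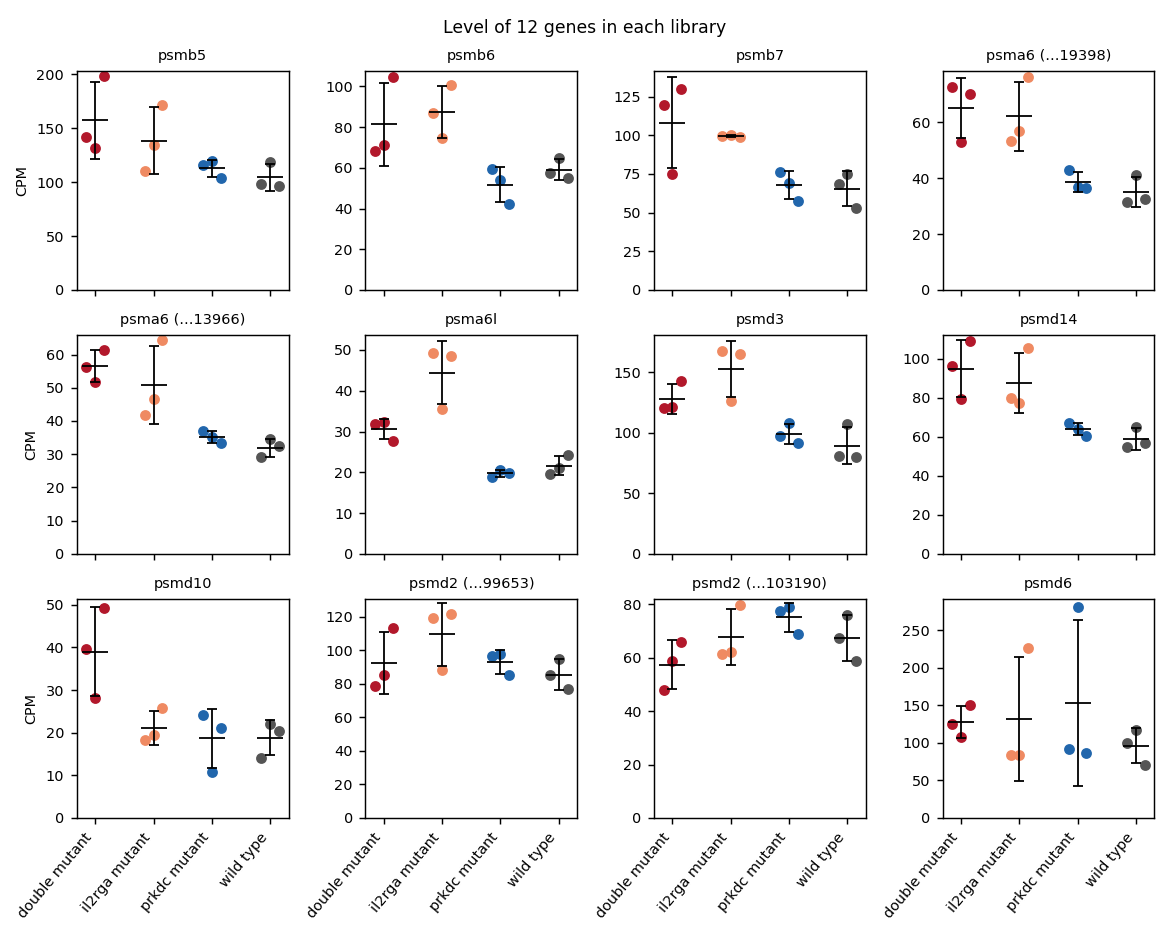
CPM of 12 members in each library, with the group mean and SD (n = 3 each) and axes from 0. The catalytic subunits psmb5, psmb6 and psmb7 and the psma6 genes are mostly higher in double and il2rga mutants, the psmd2 genes show little separation, and psmd6 is dominated by prkdc mutant 2 and il2rga mutant 3.

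In the ATPase ring, which unfolds substrates, no gene was called in any comparison. All 7 fold changes were positive in each mutant against wild type, with medians of 0.48 in double mutants, 0.38 in il2rga mutants and 0.11 in prkdc mutants on the log2 scale. psmc1 had 103, 86.4 and 122 CPM in double mutants 1 to 3, 87.2, 107 and 116 CPM in il2rga mutants 1 to 3, 80.1, 80.3 and 80.9 CPM in prkdc mutants 1 to 3, and 73.4, 86.1 and 64.2 CPM in wild type 1 to 3. Its paralogue psmc1b had 61.6, 63.8 and 64.5 CPM in double mutants 1 to 3, 71.6, 65.9 and 84.0 CPM in il2rga mutants 1 to 3, 50.2, 56.0 and 52.2 CPM in prkdc mutants 1 to 3, and 50.5, 56.0 and 41.6 CPM in wild type 1 to 3. Both separated by the il2rga mutation, psmc1 by less than 1 CPM at its closest pair of libraries. The other members of the ring, psmc2 to psmc6, had means of 121 to 161 CPM in double mutants and 86.1 to 117 CPM in wild type.

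The base also holds scaffold and receptor subunits that are not ATPases, and for none of these did the libraries with and without the il2rga mutation separate. Their median log2 fold change was 0.16 in double mutants, 0.31 in il2rga mutants and 0.15 in prkdc mutants, each against wild type, and none of the 5 was called. psmd1, a scaffold, had 226, 228 and 273 CPM in double mutants 1 to 3, 255, 231 and 307 CPM in il2rga mutants 1 to 3, 224, 299 and 203 CPM in prkdc mutants 1 to 3, and 209.5, 237 and 206 CPM in wild type 1 to 3. The groups overlapped, and its change in double mutants against wild type was 0.16 ± 0.19 (log2 ± SE, adjusted p = 0.602).

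Genes with the symbol psmd2, a scaffold that docks ubiquitin-binding shuttle proteins, differed from most members. psmd2 (ENSDARG00000103190) had 47.8, 58.7 and 65.8 CPM in double mutants 1 to 3, 61.3, 62.2 and 79.8 CPM in il2rga mutants 1 to 3, 77.6, 78.9 and 68.8 CPM in prkdc mutants 1 to 3, and 67.4, 76.1 and 58.7 CPM in wild type 1 to 3. Its double mutants lay below all prkdc mutants, and it was the only member with a negative fold change in double mutants against wild type, at -0.23 ± 0.18 (log2 ± SE, adjusted p = 0.414). psmd2 (ENSDARG00000099653) had 78.4, 85.2 and 113 CPM in double mutants 1 to 3, 119, 88.0 and 121 CPM in il2rga mutants 1 to 3, 96.6, 97.9 and 85.0 CPM in prkdc mutants 1 to 3, and 85.1, 94.8 and 76.6 CPM in wild type 1 to 3. Its groups overlapped, with a change of 0.11 ± 0.20 in double mutants against wild type (adjusted p = 0.726).

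psmd4, a receptor for ubiquitin chains, had 62.1, 47.1 and 62.0 CPM in double mutants 1 to 3, 39.7, 49.6 and 56.8 CPM in il2rga mutants 1 to 3, 43.6, 34.9 and 37.1 CPM in prkdc mutants 1 to 3, and 31.4, 44.3 and 33.8 CPM in wild type 1 to 3. Its paralogue psmd4b had 57.5, 55.7 and 63.4 CPM in double mutants 1 to 3, 45.4, 59.8 and 68.3 CPM in il2rga mutants 1 to 3, 54.9, 61.4 and 47.8 CPM in prkdc mutants 1 to 3, and 45.1, 50.8 and 44.3 CPM in wild type 1 to 3. Double mutants were above wild type for both genes, and il2rga mutants overlapped wild type for both. The change in double mutants against wild type was 0.64 ± 0.21 for psmd4 (log2 ± SE, adjusted p = 0.0581) and 0.33 ± 0.18 for psmd4b (adjusted p = 0.231).

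The lid had a median log2 fold change against wild type of 0.44 in double mutants, 0.20 in il2rga mutants and 0.17 in prkdc mutants, with psmd14 and psmd3 as its called genes. psmd14, the enzyme that cuts ubiquitin chains off the substrate as it enters, had 96.1, 79.6 and 109 CPM in double mutants 1 to 3, 80.05, 77.5 and 106 CPM in il2rga mutants 1 to 3, 67.1, 64.3 and 60.6 CPM in prkdc mutants 1 to 3, and 54.9, 65.2 and 56.8 CPM in wild type 1 to 3. All libraries with the il2rga mutation were above the others. It rose by 0.69 ± 0.18 (log2 ± SE) in double mutants against wild type (adjusted p = 0.032).

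psmd3, a structural lid subunit, had 120.5, 121 and 143 CPM in double mutants 1 to 3, 167, 126 and 165 CPM in il2rga mutants 1 to 3, 97.7, 108 and 91.4 CPM in prkdc mutants 1 to 3, and 80.8, 108 and 80.4 CPM in wild type 1 to 3. It also separated by the il2rga mutation, with il2rga mutants 1 and 3 the highest. psmd3 rose by 0.77 ± 0.18 (log2 ± SE) in il2rga mutants against wild type (adjusted p = 0.0361).

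The remaining lid genes overlapped more. psmd11 (ENSDARG00000005134) had 61.6, 72.0 and 121 CPM in double mutants 1 to 3, 46.4, 62.9 and 79.6 CPM in il2rga mutants 1 to 3, 84.5, 75.2 and 82.1 CPM in prkdc mutants 1 to 3, and 54.8, 92.4 and 67.6 CPM in wild type 1 to 3. psmd11 (ENSDARG00000060150) had 74.4, 76.4 and 112 CPM in double mutants 1 to 3, 59.7, 63.8 and 76.4 CPM in il2rga mutants 1 to 3, 83.0, 82.4 and 83.9 CPM in prkdc mutants 1 to 3, and 67.8, 76.1 and 64.4 CPM in wild type 1 to 3. For both, il2rga mutant 1 was the lowest of the 12 libraries, and their log2 fold changes in il2rga mutants against wild type were the only negative ones among the members, at -0.19 ± 0.29 and -0.06 ± 0.19 (SE). Neither passed the test (adjusted p = 0.733 and 0.876).

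psmd6, a structural lid subunit, was singled out after its values were seen, because its coefficient of variation over the 12 libraries was 50.4%, against 17.5% to 26.2% for the other lid genes. It had 125, 108 and 150 CPM in double mutants 1 to 3, 84.2, 83.9 and 227 CPM in il2rga mutants 1 to 3, 92.0, 280 and 86.5 CPM in prkdc mutants 1 to 3, and 100, 117 and 70.7 CPM in wild type 1 to 3. The same libraries, prkdc mutant 2 and il2rga mutant 3, stood out within their groups for its neighbour in the gene order of the reference annotation, slc2a9l1, a gene named as a sugar transporter of the SLC2 family. slc2a9l1 had 170, 507 and 415 CPM in double mutants 1 to 3, 140, 186 and 901 CPM in il2rga mutants 1 to 3, 639, 3919 and 649 CPM in prkdc mutants 1 to 3, and 752, 1677 and 517 CPM in wild type 1 to 3. The part of that neighbour in the psmd6 counts was not tested. The gene on the other side, atxn7, had 11.9 to 30.2 CPM in the 12 libraries.

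The chaperones help to build the base and leave the finished proteasome, a role known mainly from human and yeast. psmd10, also called gankyrin, had 39.7, 28.2 and 49.2 CPM in double mutants 1 to 3, 18.3, 19.3 and 25.7 CPM in il2rga mutants 1 to 3, 24.2, 10.8 and 21.0 CPM in prkdc mutants 1 to 3, and 14.2, 21.9 and 20.3 CPM in wild type 1 to 3. The double mutants lay above all other libraries, and the il2rga mutants overlapped wild type. Its log2 fold change was 1.06 ± 0.32 (SE) in double mutants against prkdc mutants (adjusted p = 0.0486), 1.052 ± 0.32 against wild type (adjusted p = 0.0509) and 0.89 ± 0.32 against il2rga mutants (adjusted p = 0.506).

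psmd9 had 21.0, 12.7 and 26.4 CPM in double mutants 1 to 3, 15.8, 15.1 and 17.4 CPM in il2rga mutants 1 to 3, 12.6, 8.95 and 11.03 CPM in prkdc mutants 1 to 3, and 12.4, 14.7 and 12.3 CPM in wild type 1 to 3. Double mutant 2 fell within the wild type range. psmd9 rose by 0.88 ± 0.27 (log2 ± SE) in double mutants against prkdc mutants (adjusted p = 0.0478), and psmd5 was called in no comparison.

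psmc3ip, which pairs chromosomes in meiosis and is outside the proteasome, had a large fold change on few counts. It had 20.3, 10.4 and 9.01 CPM in double mutants 1 to 3, 11.1, 11.2 and 10.4 CPM in il2rga mutants 1 to 3, 5.61, 4.04 and 6.12 CPM in prkdc mutants 1 to 3, and 3.74, 5.85 and 6.995 CPM in wild type 1 to 3. It rose by 1.26 ± 0.36 (log2 ± SE) in double mutants against wild type (adjusted p = 0.0396) and by 1.33 ± 0.36 against prkdc mutants (adjusted p = 0.0337). Double mutant 1, its highest library, also had the highest ovary and yolk marker level of the 12 libraries, at a mean log2 CPM of 7.95. Without double mutant 1 the change against wild type was 0.82, and the part of ovary RNA was not tested.

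The members lay mostly apart in the genome. In the gene order of the GRCz12tu assembly, 41 genes matched by the same name rule lay on 19 chromosomes, with no direct neighbours and 2 pairs within 10 genes. The close pairs were psmc1b with psma6b, 4 genes apart, and psma6b with psma8, 7 genes apart. This psma6b is listed there under its own symbol and is a separate entry from psma6l, which has psma6b as a second name.

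Other genes of the pathway came from lists that were written with earlier results known. Among 7 remaining proteasome parts and assembly factors, 3 rose in double mutants against wild type and the other 4 did not pass the test, and the same 3 rose against prkdc mutants. The median log2 fold change of this list in double mutants was 0.52 against wild type. adrm1, a further ubiquitin receptor of the base, had 106, 84.0 and 111 CPM in double mutants 1 to 3 and 57.6, 72.0 and 56.1 CPM in wild type 1 to 3, with a log2 fold change of 0.70 ± 0.19 (SE, adjusted p = 0.0334). sem1, a small lid subunit, had 98.2, 87.4 and 88.9 CPM in double mutants 1 to 3 and 54.2, 64.7 and 58.5 CPM in wild type 1 to 3, with a change of 0.63 ± 0.17 (adjusted p = 0.0318). pomp, which assembles the core particle, had 88.1, 77.1 and 114 CPM in double mutants 1 to 3 and 48.8, 63.5 and 54.2 CPM in wild type 1 to 3, with a change of 0.75 ± 0.21 (adjusted p = 0.0387). For each of these genes the double mutants lay above wild type without overlap.

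Among 6 genes for proteasome activators and an inhibitor, psme4 (ENSDARG00000018742) fell, and the other 5 were called in no comparison. psme4 encodes a cap that in mammals activates the core without ATP. It had 70.1, 87.0 and 100 CPM in double mutants 1 to 3, 89.9, 79.2 and 71.3 CPM in il2rga mutants 1 to 3, 126, 119 and 128 CPM in prkdc mutants 1 to 3, and 123, 140 and 130 CPM in wild type 1 to 3. All libraries with the il2rga mutation were below the others, opposite to the subunits. Its log2 fold change against wild type was -0.61 ± 0.17 (SE) in double mutants (adjusted p = 0.0382) and -0.71 ± 0.17 in il2rga mutants (adjusted p = 0.0364).

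The beta subunits psmb8, psmb9, psmb12 and psmb13a, which stand in for constitutive ones in immune cells, were called higher in double and in il2rga mutants against prkdc mutants, and none of the 5 such genes tested was called against wild type, with psmb10 called nowhere. psmb8 had 59.3, 78.4 and 19.4 CPM in double mutants 1 to 3, 42.9, 63.7 and 141 CPM in il2rga mutants 1 to 3, 0 in all 3 prkdc mutants, and 47.4, 22.0 and 0.108 CPM in wild type 1 to 3. Wild type 3 was thus near 0 for psmb8, while its psmb5 level was close to that of wild type 1. psmb12 and psmb13a were likewise at 0 in all 3 prkdc mutants, and both were at 0 in wild type 3 as well. psmb8, psmb12 and psmb13a were thus at or near 0 together in single animals, also within wild type, while psmb9 was at 0 in no library. The source of the zeros was not tested.

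Of 21 genes for ubiquitin, shuttle proteins and deubiquitinases, zfand5a was the only one called in any comparison. zfand5a, whose mammalian counterpart binds the proteasome and raises its activity, had 82.2, 65.0 and 40.2 CPM in double mutants 1 to 3, 74.0, 73.7 and 42.3 CPM in il2rga mutants 1 to 3, 30.2, 31.3 and 27.2 CPM in prkdc mutants 1 to 3, and 35.0, 31.3 and 27.9 CPM in wild type 1 to 3. It rose by 0.99 ± 0.28 (log2 ± SE) in double mutants against wild type (adjusted p = 0.0387). Among the libraries with the il2rga mutation, double mutant 3 and il2rga mutant 3 were the lowest for zfand5a and the highest for the summed members.

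Of 13 tested genes for control of proteasome genes, none was called in a mutant against wild type. nfe2l1b, whose mammalian counterpart raises proteasome genes when the proteasome is inhibited, had 33.2, 58.1 and 45.7 CPM in double mutants 1 to 3, 31.1, 45.7 and 43.6 CPM in il2rga mutants 1 to 3, 75.1, 85.1 and 68.7 CPM in prkdc mutants 1 to 3, and 58.3, 85.1 and 59.5 CPM in wild type 1 to 3. All libraries with the il2rga mutation lay below the others, though double mutant 2 was within 1 CPM of wild type 1. It fell by 0.93 on the log2 scale in il2rga mutants against prkdc mutants (SE 0.25, adjusted p = 0.0489). In double mutants against prkdc mutants, nfya (ENSDARG00000001621) and nfybb, parts of the CCAAT-box factor NF-Y, rose by 1.03 ± 0.26 and 1.17 ± 0.26 (log2 ± SE, adjusted p = 0.0274 and 0.0192). In the same comparison nfe2l2, the oxidative stress factor, fell by 0.59 on the log2 scale (SE 0.18, adjusted p = 0.0498).

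Some other gene lists also differed between mutants with the il2rga mutation and wild type, and others did not. Among all tested genes 6.8% rose and 7.51% fell in double mutants, and 2.22% rose and 3.59% fell in il2rga mutants. No gene of the erythroid, thrombocyte and testis lists was called in double or il2rga mutants against wild type. Within each group, though, the library with the highest erythroid sum also had the highest proteasome sum. These erythroid sums were 8579 CPM in double mutant 3, 9593 CPM in il2rga mutant 3, 5318 CPM in prkdc mutant 1 and 10553 CPM in wild type 2. The match was noticed after the values were seen, and the part of erythroid RNA was not tested. Of 5 B cell genes, 4 fell in double mutants and 1 rose in il2rga mutants. Of 10 macrophage genes, 1 rose in double mutants and 1 in il2rga mutants. Of 9 tested ovary and yolk genes, 3 rose in double mutants and none in il2rga mutants. The ovary and yolk sums were 3758, 447 and 52.4 CPM in double mutants 1 to 3 and 14.4 to 87.4 CPM in wild type. Of 15 tested liver genes, 13 rose in double mutants and 1 in il2rga mutants against wild type. Their summed CPM ran from 1506 to 15167 in double mutants, 341 to 6032 in il2rga mutants, 240 to 309 in prkdc mutants and 197 to 262 in wild type, and none was at 0 except serpina1 and ttr in il2rga mutant 3. il2rga mutant 3, with a mean log2 CPM of 2.38 over the liver list, was below wild type 1 at 2.69 and had the second highest proteasome sum of the 12 libraries. The 4 libraries richest in liver transcripts were double mutants 1 and 2 and il2rga mutants 1 and 2. Without them each of these groups holds 1 library, double mutant 3 or il2rga mutant 3. These have the highest and second highest proteasome sums of the 12 libraries, at 5201 and 5127 CPM. The median member log2 fold change against wild type was then 0.78 in double mutants and 0.73 in il2rga mutants, and so rests on those libraries. No member was then called.

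Very long transcripts were lower in the 6 libraries with the il2rga mutation. Of 11 such genes, a list chosen after earlier results, 9 fell in double mutants and 7 in il2rga mutants against wild type. The share of all tested genes that fell was 7.51% in double mutants and 3.59% in il2rga mutants. Their mean log2 CPM was 6.43, 6.54 and 6.69 in double mutants 1 to 3, 6.88, 6.33 and 6.11 in il2rga mutants 1 to 3, 7.42, 7.53 and 7.39 in prkdc mutants 1 to 3, and 7.53, 7.64 and 7.63 in wild type 1 to 3. Their summed CPM ran from 1095 to 1485 in double mutants, 1023 to 1640 in il2rga mutants, 2342 to 2953 in prkdc mutants and 2651 to 2852 in wild type, with none at 0. The part of transcript length or RNA quality in the proteasome result was not tested.

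Markers of dividing cells separated less. Of 7 genes, ccnb1 rose in double mutants against wild type, and their summed CPM ran from 1039 to 2778 in double mutants, 1231 to 1607 in il2rga mutants, 441 to 1423 in prkdc mutants and 983 to 1631 in wild type. Double mutant 3, the library with the highest proteasome sum, also had the highest mean log2 CPM over this list, at 8.35. Within each group the library with the highest proteasome sum also had the highest summed CPM of this list. These were double mutant 3, il2rga mutant 3, prkdc mutant 1 and wild type 2. The 6 T cell markers were lower in the libraries with the il2rga mutation, at summed CPM of 2.00 to 5.57 in double mutants, 1.70 to 3.95 in il2rga mutants, 11.1 to 18.3 in prkdc mutants and 36.1 to 80.3 in wild type. The 8 proximal tubule genes were likewise lower in sum in the libraries with the il2rga mutation, at summed CPM of 3784 to 5777 in double mutants, 3320 to 5203 in il2rga mutants, 6254 to 10377 in prkdc mutants and 7580 to 11063 in wild type. Against wild type, 1 of the 2 slc20a1 copies (ENSDARG00000010641) rose and slc22a2 fell in double mutants, and aqp8 rose in il2rga mutants. The 3 neutrophil genes summed to 2536 to 3564 CPM in double mutants, 3131 to 8104 CPM in il2rga mutants, 1684 to 3642 CPM in prkdc mutants and 1752 to 2215 CPM in wild type, and mmp13a was the only one called against wild type, higher in il2rga mutants. The highest neutrophil sum of the 12 libraries was that of il2rga mutant 3. Double mutant 3, with the highest proteasome sum, had the lowest neutrophil sum of the double mutants, at 2536 CPM. Among prkdc mutants the highest neutrophil sum, 3642 CPM, was that of prkdc mutant 3, which had their lowest proteasome sum. The part of these cell types in the proteasome levels was not tested.

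**Figure D5:**
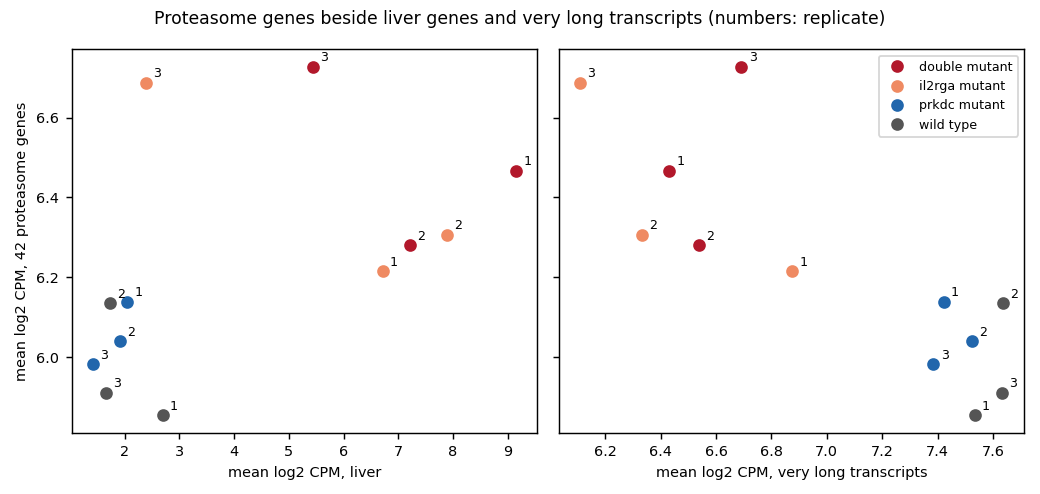
Mean log2 CPM of the 42 members in each library against the mean log2 CPM of the liver list (left) and of the very long transcripts (right), with the replicate number beside each point. On the left the liver level spreads widely among the libraries with the il2rga mutation, and il2rga mutant 3 pairs a high proteasome level with a low liver level of 2.38. On the right the 6 libraries with the mutation form a separate group at 6.11 to 6.88, against 7.39 to 7.64 for the other 6.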

How the data were processed

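Poly(A) RNA of the dissected kidney of 12 single zebrafish was sequenced from directional libraries, per the labels' protocols. The authors deposited raw read counts per Ensembl gene, made with STAR, Picard and featureCounts on GRCz10, per the submitters' processing notes. The sources used here give no versions or strand setting, so reads of overlapping genes or near-identical copies may not be told apart.

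A reference table gave symbols for 26269 of 32105 identifiers, read without regard to case. Low counts were removed with filterByExpr and library sizes were corrected by TMM. The quasi-likelihood model of edgeR 4.0.16 (R 4.3.3; robust glmQLFit, two-sided glmQLFTest) had a mean for each of the 4 groups and used every library, with Benjamini-Hochberg adjustment over 18370 genes within each of 7 comparisons at 0.05. The SE is the log2 fold change over the root of F, and log2 CPM uses a prior count of 2. The code was tested on simulated data. Alternatives were DESeq2 1.42.0, voom in limma 3.58.1, other filters and scalings, a replicate block, a liver covariate and left-out libraries.

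The members and lists were chosen with earlier results of these data known. Values in every library are given for catalytic subunits, the called members with the smallest p, the smallest p of each comparison, paralogues, and the members with the most and the fewest counts. Replicates are separate animals, and their counts differed beyond sampling noise (chi-square per degree of freedom 19.1 to 79.7). Deviations of same-numbered libraries correlated above 0.1 in 6 of 18 pairs, among them all 3 pairs of il2rga with double mutants. Differently numbered pairs of these 2 groups also reached 0.42 (double mutant 1 with il2rga mutant 2).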

Additional observations from a re-analysis of the deposited data

How the results depend on the processing

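Counts of called members depended on the analysis, and the share of all tested genes called in each alternative is not set beside them. None of 31 named fold changes reversed over 712 alternatives, of which 250 lost the call and 3 gained it. Named changes that were not called in the main fit, such as those of psmb5, psmb6 and psmb7, could gain a call but not lose one. Most named changes were picked because they were called or had the smallest p in these same libraries. Their kept direction is therefore no separate evidence. In il2rga mutants against wild type (3 called) the count was 1 with no filter, 11 by DESeq2, 11 by voom, 1 with only the groups compared, 1 with the replicate block, 0 with the liver list as a covariate, 0 without the 4 libraries highest in liver transcripts and 1 without double mutant 3 and il2rga mutant 3, the last chosen after seeing the data. In double mutants against wild type (7 called) it was 4 with no filter, 17 by DESeq2, 1 with only the groups compared, 5 with the replicate block, and 0 in both liver analyses. In double mutants against prkdc mutants (9 called) it was 2 with no filter, 17 by DESeq2, 0 with only the groups compared, 1 with the replicate block and 0 in both liver analyses. In il2rga mutants against prkdc mutants (3 called) it was 1 with no filter, 9 by DESeq2, 16 by voom, 1 with only the groups compared, 1 with the replicate block, 0 in both liver analyses and 1 without double mutant 3 and il2rga mutant 3.

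The median log2 fold change of the members with the liver covariate, and then without the 4 libraries, was 0.71 and 0.73 in il2rga mutants against wild type, 0.88 and 0.78 in double mutants against wild type, 0.83 and 0.72 in double mutants against prkdc mutants, and 0.64 and 0.63 in il2rga mutants against prkdc mutants. In double mutants against prkdc mutants the median was 0.31 without double mutant 3 and il2rga mutant 3. Only these libraries remain in their groups without the 4 highest in liver transcripts, and they have the highest proteasome sums. Leaving out each library in turn gave counts of 0 to 4 in il2rga mutants against wild type, 0 to 15 in double mutants against wild type, 0 to 13 in double mutants against prkdc mutants, 1 to 4 in il2rga mutants against prkdc mutants, and 0 throughout in the other comparisons. The medians in the same analyses ran from 0.33 to 0.56, 0.36 to 0.64, 0.30 to 0.59 and 0.23 to 0.46, and from 0.06 to 0.19 in prkdc mutants against wild type, -0.03 to 0.27 in double against il2rga mutants and -0.13 to 0.17 in the interaction. Where a group held 1 library, it was assumed to vary like the others, and the cause of lost calls was not tested. What depth limits was not tested.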
